A study of Mus musculus with 18 samples.

Results

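Interferon-stimulated antiviral genes are the genes that cells switch on when interferon binds its receptor. A list of 45 of them was read in hearts of control mice and of Kir6.1-deficient mutants. Kir6.1, encoded by Kcnj8, forms the pore of an ATP-sensitive potassium channel found in vascular smooth muscle. Members were taken by symbol, in a list chosen with earlier results of these data known. Of the 45, 43 had at least 1 probe set on the Affymetrix mouse array annotated to that symbol alone, among 18193 such genes. The probe set of Isg15, the ubiquitin-like modifier, is shared with another symbol, and no single-symbol probe set names Ifi44, so neither was analysed here. The 18 arrays formed 6 groups of 3: control and mutant hearts 3 h after phosphate-buffered saline (PBS), 30 min after lipopolysaccharide (LPS) and 3 h after LPS. The LPS amount was 0.5 µg in PBS, LPS being the bacterial endotoxin that Toll-like receptor 4 recognises. The labels name neither the strain, age and sex of the mice nor the mutant allele. The labels number the hearts from 1 in each group without saying that every number is another animal, and the design text counts 3 mice a genotype. The p-values therefore measure the spread between arrays, and some of it may be technical.

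Type I interferons act through the receptor IFNAR and the kinases JAK1 and TYK2, which activate STAT proteins, STAT2 among them. STAT2 and IRF9 belong to ISGF3, a complex that binds the interferon-stimulated response element (ISRE) in promoters, whereas the response to interferon gamma acts through the gamma-activated site (GAS). LPS reaches the same pathway through TLR4, its adaptor TRIF and IRF3, which induces interferon beta. In the heart the products of these genes are known above all from viral myocarditis, and cardiomyocytes, endothelial cells, fibroblasts and resident macrophages can all make them.

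Values are log2 signals made by RMA, the robust multi-array average, as deposited, and a difference of 1 on this scale is a doubling. Array values are given in the order of replicates 1, 2 and 3. The threshold was a Benjamini-Hochberg adjusted p of 0.05 over all 45037 probe sets in limma, and errors are standard errors of that fit unless given as SD. Kcnj8 read 8.35 to 8.90 on the 9 control arrays and 4.35 to 5.36 on the 9 mutant arrays, so the labels and the disrupted gene went together. All 8 cardiomyocyte markers were bright in every group. Mutant LPS 3 h replicates 1 and 3 stood apart. They were the arrays hybridized on a second day, with 3' minus 5' control signals of 1.37 and 1.09 against 0.13 to 0.44 on the other 16. Counts over the list and some gene results that rest on them are also given without them. Other values for mutants 3 h after LPS include them. The first day held the PBS arrays, the control LPS 3 h arrays and replicate 2 of the mutant LPS 3 h group, and the third day the 30 min arrays. In bulk tissue, fewer cells of a type and less RNA per cell cannot be told apart.

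The ISRE core was looked for in the promoters of the list. RefSeq promoters of build GRCm38.p6, from 250 bases before to 50 bases after the gene start, were at hand for 35 of the 45 members. The core GAAANNGAAA, searched on both strands with overlaps counted, was present in 13 of these 35 (37.1%), against 3.99% of the 27025 genes with a promoter there. They were Stat2, Ifih1, Eif2ak2, Oas1a, Oas3, Ifit1, Ifit3, Isg15, Rsad2, Bst2, Ifitm3, Trim21 and Trim30a. The GAS pattern TTCNNNGAA, which reads the same on both strands, was present in 11 members (31.4%), against 9.55% of genes. A match is a description of these letters and not a measured site. The windows of 5 members whose values are followed below are shown, 5′ to 3′ on the gene's strand, with every ISRE core match in capitals. In Ifit1, Ifit3 and Rsad2 the match lies on the opposite strand, and the pair of matches in Bst2 overlaps. A GAS match 136 bases before the Bst2 start also lies in its window, partly in lower case, since it overlaps the first ISRE core match.
Ifit1, chr19:34640773-34640825, plus strand: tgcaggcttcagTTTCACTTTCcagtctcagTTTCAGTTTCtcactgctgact
Ifit3, chr19:34583361-34583428, plus strand: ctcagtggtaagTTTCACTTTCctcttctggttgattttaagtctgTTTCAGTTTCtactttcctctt
Rsad2, chr12:26456551-26456584, minus strand: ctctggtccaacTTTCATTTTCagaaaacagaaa
Oas3, chr5:120777713-120777746, minus strand: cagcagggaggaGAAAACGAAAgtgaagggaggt
Bst2, chr8:71537575-71537614, minus strand: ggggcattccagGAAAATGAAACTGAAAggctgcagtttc
The Ifit1 matches start 104 and 85 bases before the gene start, those of Ifit3 156 and 122 bases, that of Rsad2 120 bases, that of Oas3 75 bases and those of Bst2 130 and 124 bases. Among measured members with a promoter, the median LPS change at 3 h in control hearts was 0.91 for the 12 with the ISRE core and 0.79 for the 21 without it. In mutant hearts, with the second-day arrays included, the medians were 0.82 and 0.51. Of the 12 with the core 5 rose in control hearts and 8 in mutant hearts, and of the 21 without it 7 rose in control hearts and 9 in mutant hearts.

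Control hearts read higher over most of the list 3 h after LPS. Of 43 members 17 rose, 0 fell and 26 did not pass, so 39.5% of the list rose, against 0.638% of all 18193 genes that rose and 0.137% that fell. The fitted change was above 0 for 42 members, with Irf5 the exception, and its median was 0.79, against -0.01 over all genes. In 32 members every LPS array lay above every PBS array, which 11% of all genes did. The IFIT family had the 3 largest changes, followed by Parp14, Usp18, Trim30a and Rtp4.

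**Figure D1:**
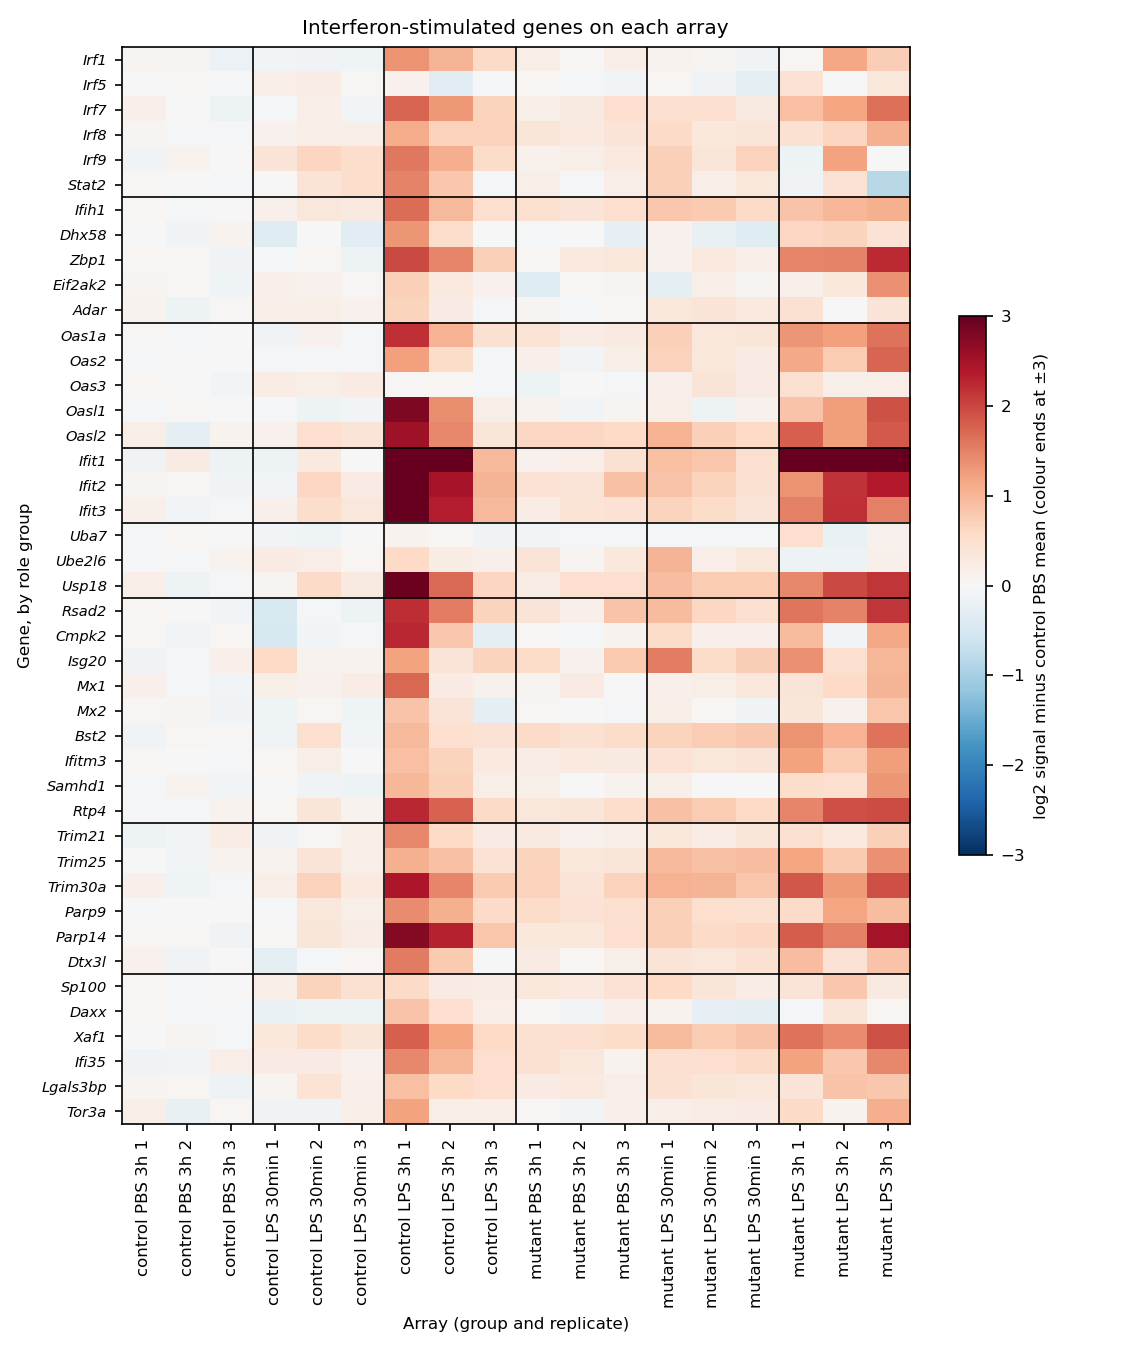
Each row is 1 of the 43 measured genes, grouped by role between horizontal lines, and each column is 1 array. Colour gives the log2 signal minus the mean of the 3 control PBS arrays, with the scale ending at ±3. Of the control LPS 3 h columns replicate 1 is the darkest and replicate 3 the palest, and the mutant LPS 3 h columns are raised in all 3, with Stat2 and Irf9 low on replicates 1 and 3.

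How many members passed in control hearts depended on single arrays, while the direction did not. Leaving out a control PBS array gave 2, 0 and 0 members for replicates 1, 2 and 3, against 0.253%, 0.11% and 0.132% of all genes that rose in the same fits. Leaving out a control LPS 3 h array gave 3, 1 and 28, against 0.209%, 0.214% and 1.47% of all genes. The median change stayed between 0.55 and 1.15 in those 6 fits. With the 6 arrays compared alone 0 members passed, against 0.011% of all genes, and with first-day arrays alone 4, against 0.418%. Without the second-day arrays, which enter this comparison through the shared spread, 24 passed, against 2.35%. Control PBS and control LPS 3 h arrays shared the first day but differed in array lot and fluidics station, so lot, station and LPS cannot be told apart in this comparison.

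The 3 control LPS 3 h hearts differed widely in the list. The median member lay 1.45, 0.80 and 0.43 above the control PBS mean on replicates 1, 2 and 3. Of 43 members 42 were highest on replicate 1 and 40 were lowest on replicate 3, whereas 29.2% of all genes were highest on replicate 1 and 21.6% were lowest on replicate 3. The median SD of the members was 0.59 in this group, against 0.17 over all genes, and 0.09 in the control PBS group, against 0.10 over all genes. The mutant LPS 3 h arrays lay at 0.87, 0.80 and 1.17, with 28 members highest on replicate 3 and a median SD of 0.33, against 0.27 over all genes.

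**Figure D2:**
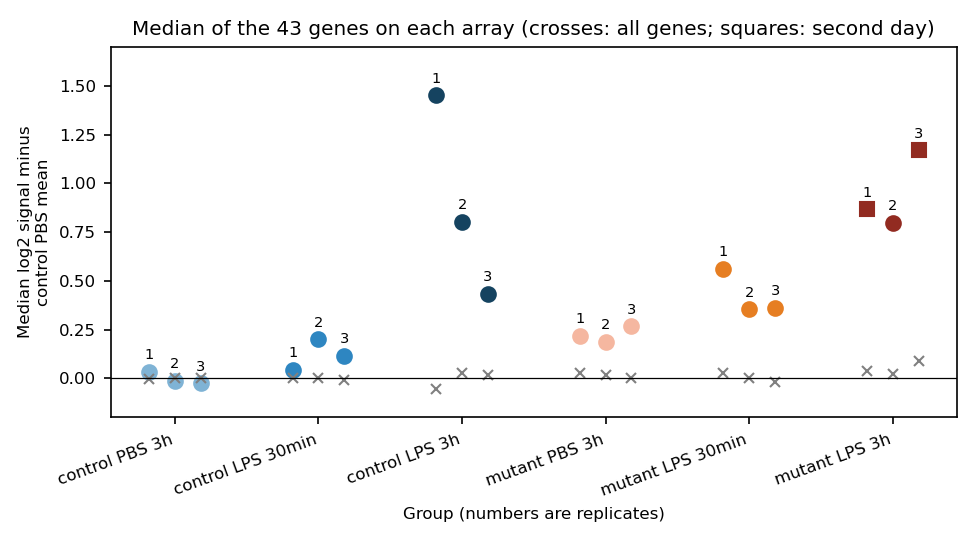
Points show, for each array, the median over the 43 genes of the log2 signal minus the control PBS mean, with replicate numbers above them, squares for the second-day arrays and grey crosses for the median of all genes. The control LPS 3 h arrays spread from 0.43 to 1.45, and all mutant arrays lie above the 3 control PBS arrays.

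In mutant hearts the list was also higher 3 h after LPS. Of 43 members 22 rose, 0 fell and 21 did not pass, 51.2% of the list, against 9.9% of all genes that rose and 16.1% that fell. The median change was 0.65, against 0.07 over all genes, and 41 members were above 0, with Stat2 and Ube2l6 below it. In 31 members every LPS array lay above every PBS array, against 16.5% of all genes. Without the second-day arrays 7 members rose (Irf1, Irf9, Zbp1, Ifit1, Ifit3, Rtp4 and Lgals3bp) against 5.29% of all genes, and the median was 0.52. That fit rests on replicate 2 alone for the mutant LPS 3 h group, which is then assumed to vary like the other groups. Leaving out mutant LPS 3 h replicate 3 gave 12 members, against 2.89% of all genes, and leaving out mutant PBS replicate 2 gave 14, against 3.85%.

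Both genotypes shared 14 risen members, 3 rose by the test in controls alone (Irf8, Ifih1 and Parp9) and 8 in mutants alone (Oas1a, Oas2, Oas3, Oasl1, Oasl2, Bst2, Ifitm3 and Samhd1). Without the second-day arrays, which enter the control comparison through the shared spread, Oas1a, Oasl2, Bst2, Ifitm3 and Samhd1 passed in controls. Passing in 1 genotype and not in the other does not show that the genotypes differ. The difference itself, the mutant change minus the control change, passed for 0 of 43 members in limma, with a smallest adjusted p of 0.158 and 6 members at an unadjusted p under 0.05. Over all genes 0.0989% passed upwards and 0.0605% downwards. The fitted difference was below 0 for 30 members, with a median of -0.18, against 0.07 over all genes. That median was 0.19 without control LPS 3 h replicate 1 and -0.51 without replicate 3. Without mutant LPS 3 h replicate 2, 1 member passed upwards and 3 downwards, against 11.5% and 17.2% of all genes.

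**Figure D3:**
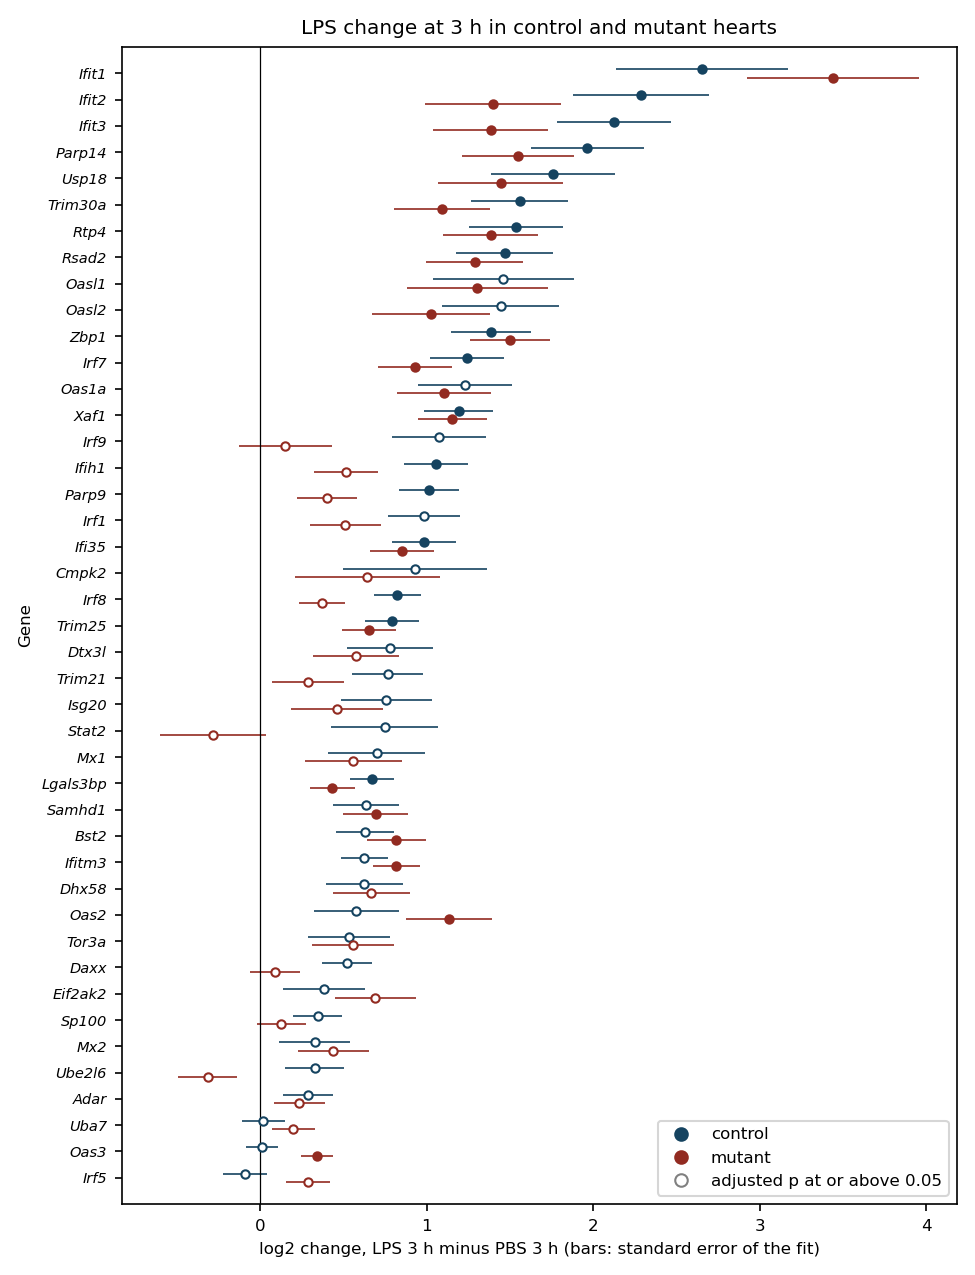
Points give each gene's log2 change from PBS to LPS at 3 h in control (blue) and mutant (red) hearts, with bars of 1 standard error; filled points have an adjusted p under 0.05. Genes are ordered by the control change, with Ifit1 at the top at 2.66 in controls and 3.44 in mutants.

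Among the transcription factors of the pathway, Irf7 rose in both genotypes and Irf8 by the test in controls. Irf7, the master regulator of the later wave of interferon alpha, read 6.63, 6.46 and 6.33 on control PBS arrays and 8.23, 7.77 and 7.14 on control LPS 3 h arrays. In mutants it went from 6.65, 6.74 and 6.98 to 7.38, 7.66 and 8.13. The PBS and LPS arrays did not overlap in either genotype, and the change was 1.24 (SE 0.22, limma adjusted p = 0.0191) in controls and 0.93 (adjusted p = 0.0108) in mutants. Irf8, a factor of myeloid cells, read 5.78, 5.65 and 5.65 after PBS and 6.80, 6.38 and 6.37 after LPS in controls, and 6.07, 5.98 and 6.08 and 6.15, 6.34 and 6.75 in mutants. All its LPS arrays lay above their PBS arrays, with changes of 0.83 (adjusted p = 0.0135) and 0.37 (adjusted p = 0.0664). A dimmer second Irf8 probe set did not rise, at -0.04 in controls and -0.30 in mutants (adjusted p = 0.974 and 0.217). Irf1, an early target of interferon gamma, did not pass in either genotype in the fit of all 18 arrays, at 0.98 and 0.51 (limma adjusted p = 0.0571 and 0.0979). In controls it passed with arrays centred on their medians, with the dim filter, with array weights and without the second-day arrays. In mutants it is among the members named above without the second-day arrays, where the group is replicate 2 alone.

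Irf9 and Stat2, whose products belong to ISGF3, read lower on the second-day arrays than on replicate 2 of the same group. Irf9 read 6.65, 6.87 and 6.77 on control PBS arrays, 8.34, 7.85 and 7.33 on control LPS 3 h arrays, 6.90, 6.94 and 7.05 on mutant PBS arrays and 6.61, 7.97 and 6.76 on mutant LPS 3 h arrays. Replicate 2 stood well above replicates 1 and 3 of the last group, which lay below the mutant PBS arrays. The mutant change was 0.15 (limma adjusted p = 0.72), and 1.01 without the second-day arrays (adjusted p = 0.0224). Stat2 read 5.59, 5.35 and 5.61 on mutant PBS arrays and 5.30, 5.82 and 4.58 on mutant LPS 3 h arrays, lowest on replicate 3, and did not pass in either genotype. Irf5, a factor downstream of Toll-like receptors, changed by -0.09 in controls and 0.29 in mutants and did not pass (adjusted p = 0.886 and 0.127).

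Of 5 sensors of foreign nucleic acid and their editors, Zbp1 and Ifih1 rose in controls and Zbp1 in mutants. Zbp1, a sensor of Z-form nucleic acid, read 4.85, 4.84 and 4.7 on control PBS arrays and 6.77, 6.27 and 5.51 on control LPS 3 h arrays, a change of 1.39 (SE 0.24, limma adjusted p = 0.0166). In mutants it went from 4.86, 5.09 and 5.13 to 6.26, 6.29 and 7.03, by 1.5 (adjusted p = 0.00159, and 0.0148 without the second-day arrays). The groups did not overlap in either genotype. Ifih1, which encodes the double-stranded RNA sensor MDA5, read 6.93, 6.87 and 6.90 and 8.58, 7.87 and 7.41 in controls and 7.38, 7.29 and 7.41 and 7.76, 7.89 and 7.97 in mutants. Its changes were 1.06 (adjusted p = 0.0215) and 0.51 (adjusted p = 0.0664). The mutant PBS arrays already lay above all control PBS arrays. Dhx58 (LGP2), Eif2ak2 (the kinase PKR) and Adar, which edits double-stranded RNA, did not pass at 0.63, 0.38 and 0.29 in controls and 0.67, 0.69 and 0.24 in mutants.

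The OAS family, of RNA-binding enzymes and relatives, the active ones of which make the messenger that switches on RNase L, gave 0 of 5 members past the test in controls and 5 of 5 in mutants. The fitted changes were of like size for most of them, with a family median of 1.23 in controls and 1.10 in mutants. Oas1a read 7.15, 7.07 and 7.12 on control PBS arrays and 9.30, 8.16 and 7.57 on control LPS 3 h arrays, against 7.52, 7.34 and 7.38 and 8.45, 8.35 and 8.75 in mutants. The SD over the LPS arrays was 0.88 in controls and 0.21 in mutants, and the changes were 1.23 (limma adjusted p = 0.0711) and 1.10 (adjusted p = 0.0146). Oasl1, whose product restrains IRF7 translation in mice, read 8.29, 6.87 and 5.66 on control LPS 3 h arrays, the widest of these spreads, and 6.35, 6.73 and 7.38 on mutant ones. Oas2 changed by 0.58 and 1.13, Oasl2 by 1.44 and 1.03, and the dim Oas3 by 0.01 and 0.34, in controls and mutants in that order. In controls Oas1a and Oasl2 passed once the second-day arrays were left out. Without the second-day arrays none of the 5 passed in mutants in limma, at adjusted p from 0.153 for Oas1a to 0.453 for Oasl2.

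The genes of the IFIT proteins, which bind viral RNA ends, had the 3 largest changes in controls, and all 3 measured rose in both genotypes. In mutants Ifit1 led, and Ifit2 and Ifit3 lay below Parp14, Zbp1 and Usp18. Ifit1 read 6.69, 7.03 and 6.64 on control PBS arrays and 10.78, 9.78 and 7.77 on control LPS 3 h arrays. In mutants it read 6.91, 6.98 and 7.23 after PBS and 10.29, 9.83 and 11.32 after LPS. Every LPS array exceeded every PBS array, and replicate 3 of the controls was the lowest of the 6 LPS arrays. The change was 2.66 in controls (SE 0.52, 6.3-fold, limma adjusted p = 0.0298) and 3.44 in mutants (10.8-fold, adjusted p = 0.00108, and 0.0178 without the second-day arrays).

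Ifit2 read 6.89, 6.84 and 6.69 and 10.18, 9.27 and 7.84 in controls, and 7.23, 7.19 and 7.69 and 8.15, 8.98 and 9.18 in mutants, after PBS and LPS. The groups did not overlap, and it rose by 2.29 and 1.40 (limma adjusted p = 0.0191 and 0.0259). Ifit3 read 6.79, 6.56 and 6.58 and 9.68, 9.0 and 7.62 in controls, and 6.86, 7.06 and 7.08 and 8.15, 8.84 and 8.16 in mutants. It rose by 2.12 and 1.38 (limma adjusted p = 0.0114 and 0.0128), also without overlap. The difference between genotypes was 0.78 for Ifit1, -0.89 for Ifit2 and -0.74 for Ifit3, and none of the 3 passed (adjusted p = 0.541, 0.371 and 0.375).

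**Figure D4:**
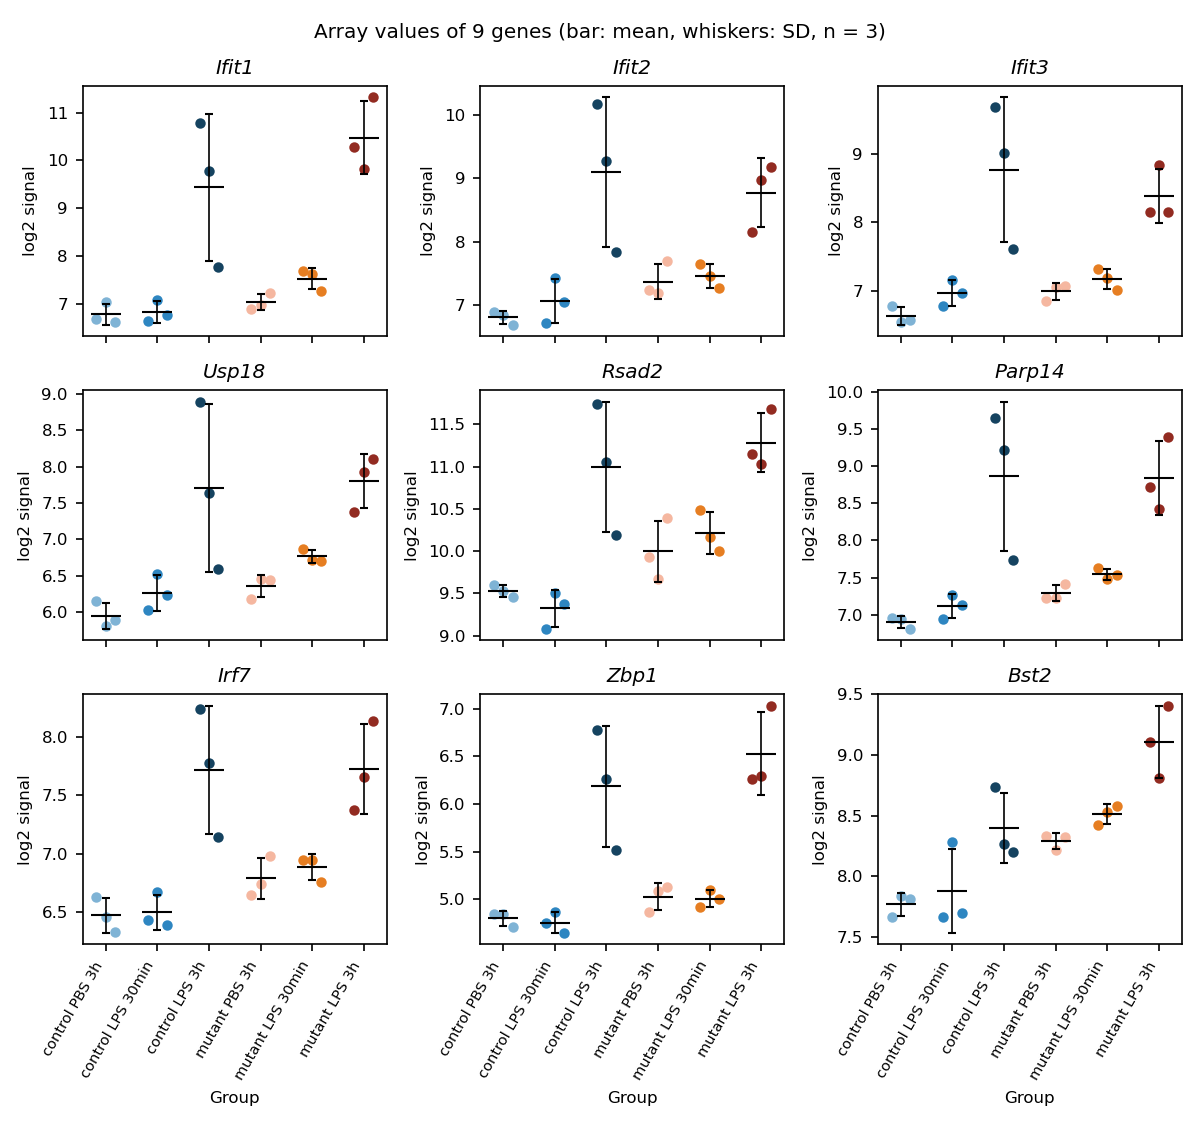
Each panel plots 1 gene's log2 signal on the 18 arrays by group, with the mean as a black bar and the SD as whiskers (n = 3 a group). Ifit1 reaches 10.78 on control LPS 3 h replicate 1 and 11.32 on mutant LPS 3 h replicate 3, and the Bst2 mutant arrays exceed the control arrays within each condition.

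Of the genes of ISG15 conjugation, Usp18 rose in both genotypes and the others did not pass. Usp18 encodes the protease that removes ISG15 and also damps signalling at IFNAR. It read 6.15, 5.80 and 5.89 on control PBS arrays and 8.89, 7.64 and 6.59 on control LPS 3 h arrays, and 6.18, 6.45 and 6.44 and 7.38, 7.93 and 8.10 on the mutant arrays. The groups did not overlap, with changes of 1.76 (limma adjusted p = 0.0487) and 1.44 (adjusted p = 0.0153). Ube2l6, the conjugating enzyme, changed by 0.33 in controls and -0.31 in mutants, and the activating enzyme gene Uba7 by 0.02 and 0.20.

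Of 9 direct antiviral effectors, 2 rose in controls and 5 in mutants. Rsad2, which encodes viperin, an enzyme that makes a chain-terminating nucleotide, read 9.60, 9.53 and 9.46 on control PBS arrays and 11.74, 11.06 and 10.19 on control LPS 3 h arrays. Mutant arrays read 9.93, 9.67 and 10.39 after PBS and 11.14, 11.03 and 11.68 after LPS. Neither pair of groups overlapped, and the changes were 1.47 (limma adjusted p = 0.0325) and 1.29 (adjusted p = 0.00863). Rtp4, which encodes a receptor chaperone that also restricts flaviviruses, read 8.24, 8.20 and 8.36 and 10.53, 10.05 and 8.83 in controls and 8.60, 8.62 and 8.79 and 9.72, 10.21 and 10.22 in mutants. It rose by 1.54 and 1.38 (adjusted p = 0.0235 and 0.0056), without overlap in either genotype.

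The other effectors that passed with all arrays did so in mutants. Bst2, Ifitm3 and Samhd1 passed in controls when the second-day arrays were left out. Bst2 encodes tetherin, which holds budding virions at the cell surface, and Ifitm3 a protein that blocks viral fusion. Samhd1 encodes an enzyme that depletes nucleotides, and it changed by 0.64 in controls and 0.69 in mutants (limma adjusted p = 0.203 and 0.0224). The GTPases Mx1 and Mx2, the exonuclease gene Isg20 and the nucleotide kinase gene Cmpk2 had changes of 0.33 to 0.93 in controls and 0.44 to 0.64 in mutants and did not pass. Cmpk2 read 8.90, 7.45 and 6.37 on control LPS 3 h arrays and Mx1 5.83, 4.34 and 4.24, so that replicate 1 stood well above the other two.

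Of 6 TRIM and PARP ligase genes, 4 rose in controls and 3 in mutants. Parp14, an ADP-ribosyltransferase, read 6.96, 6.95 and 6.81 on control PBS arrays and 9.65, 9.21 and 7.74 on control LPS 3 h arrays, and 7.23, 7.23 and 7.42 and 8.72, 8.42 and 9.39 on the mutant arrays. No LPS array overlapped the PBS arrays, with changes of 1.96 (limma adjusted p = 0.0162) and 1.55 (adjusted p = 0.00734). Parp9, which acts with Dtx3l, read 7.08, 7.08 and 7.07 and 8.5, 8.14 and 7.64 in controls, and 7.63, 7.5 and 7.55 and 7.64, 8.26 and 7.99 in mutants, where replicate 1 lay just above the highest PBS array.

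The Parp9 changes were 1.02 in controls and 0.41 in mutants (limma adjusted p = 0.0184 and 0.117). Trim30a, a mouse regulator of Toll-like receptor signalling, read 6.08, 5.81 and 5.91 and 8.36, 7.41 and 6.71 in controls and 6.62, 6.33 and 6.63 and 7.79, 7.21 and 7.86 in mutants. It rose by 1.56 and 1.09 without overlap (adjusted p = 0.0237 and 0.0168). Trim25, the ligase that activates the RNA sensor RIG-I, rose by 0.79 and 0.65 (adjusted p = 0.038 and 0.0128). Trim21, an intracellular antibody receptor, and Dtx3l did not pass at 0.77 and 0.78 in controls and 0.29 and 0.57 in mutants.

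Of the 6 nuclear body and other genes, Xaf1, Ifi35 and Lgals3bp rose in both genotypes. Xaf1, which promotes apoptosis, read 7.48, 7.57 and 7.43 on control PBS arrays and 9.30, 8.68 and 8.09 on control LPS 3 h arrays, and 7.96, 7.99 and 8.05 and 9.14, 8.91 and 9.41 on mutant arrays. The changes, without overlap, were 1.19 and 1.15 (limma adjusted p = 0.0166 and 0.00281). Ifi35, whose product pairs with NMI, read 8.82, 8.84 and 9.11 and 10.37, 9.92 and 9.42 in controls and 9.37, 9.26 and 9.02 and 10.12, 9.74 and 10.35 in mutants, rising by 0.98 and 0.85 (adjusted p = 0.0298 and 0.00831).

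Lgals3bp, a secreted glycoprotein that binds galectins, read 7.83, 7.81 and 7.58 and 8.65, 8.33 and 8.25 in controls, and 7.97, 8.03 and 7.94 and 8.12, 8.59 and 8.54 in mutants. It rose by 0.67 and 0.43 (limma adjusted p = 0.0334 and 0.033), and its arrays did not overlap in either genotype. Sp100 and Daxx, proteins of PML nuclear bodies, and the ATPase gene Tor3a did not pass, with changes of 0.35, 0.52 and 0.53 in controls and 0.13, 0.09 and 0.56 in mutants.

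At 30 min after LPS no member passed in limma in either genotype, where 0.066% of all genes rose and 0.0275% fell in controls, and 0.0165% rose and 0.011% fell in mutants. At an unadjusted p under 0.05 there were 2 members in each genotype. The median change was 0.16 in controls and 0.18 in mutants, with 29 and 37 members above 0. The 30 min arrays were all hybridized on their own day and were compared with PBS arrays taken at 3 h, so day, collection time and LPS cannot be told apart here. Fits with array weights called 3 members in each genotype, against 5.37% of all genes in controls and 2.62% in mutants. The 6 control arrays alone also called 3 (Irf9, Sp100 and Xaf1), against 4.37% of all genes.

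Mutant hearts read higher than control hearts over most of the list 3 h after PBS and 30 min after LPS, and no single member passed in the fit of all 18 arrays. After PBS 38 of 43 members were higher in mutants, with a median difference of 0.25, against 0.01 over all genes. All 3 mutant arrays lay above all 3 control arrays in 21 members, against 13.9% of all genes, and all lay below in 0, against 8.75%. In limma 0 members passed, with a smallest adjusted p of 0.664 and 7 at an unadjusted p under 0.05, and 0.0055% of all genes passed upwards and 0.011% downwards. With the 6 PBS arrays alone 5 members passed upwards (Ifih1, Bst2, Trim30a, Parp9 and Xaf1), against 1.02% of all genes.

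At 30 min after LPS 40 members were higher in mutants, with a median of 0.31, against 0.01 over all genes. All mutant arrays lay above all control arrays in 23 members, against 13.1% of all genes, and below in 0, against 9.61%. In limma 0 passed, with a smallest adjusted p of 0.317 and 8 at an unadjusted p under 0.05, and again 0.0055% of all genes passed upwards and 0.011% downwards. With the 6 arrays alone 7 passed upwards (Ifih1, Ifit1, Rsad2, Rtp4, Trim25, Dtx3l and Xaf1), against 1.47% of all genes. With array weights 4 passed, against 2.4%, and without the second-day arrays 1, against 0.242%. These comparisons use different arrays of each genotype, and 16 members had all mutant arrays above in both, against 4.996% of all genes. They were Irf7, Irf8, Ifih1, Zbp1, Oas1a, Oasl2, Usp18, Rsad2, Bst2, Ifitm3, Rtp4, Trim25, Trim30a, Parp9, Parp14 and Xaf1.

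Trim25 and Bst2 show the pattern at single arrays. Trim25 read 8.46, 8.38 and 8.57 on control and 9.14, 8.82 and 8.83 on mutant PBS arrays, and 8.57, 8.87 and 8.65 on control and 9.45, 9.36 and 9.40 on mutant arrays at 30 min. The mutant arrays were higher without overlap in both conditions, by 0.46 and 0.70 (limma adjusted p = 0.74 and 0.317). Bst2 read 7.66, 7.83 and 7.81 on control and 8.34, 8.22 and 8.32 on mutant PBS arrays, and 7.66, 8.28 and 7.70 and 8.43, 8.53 and 8.58 at 30 min. Its differences were 0.52 and 0.63, again without overlap (adjusted p = 0.664 and 0.563). Rsad2 read 9.08, 9.50 and 9.38 on control and 10.48, 10.16 and 10.00 on mutant arrays at 30 min, a difference of 0.89 (adjusted p = 0.817).

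After PBS the control arrays ran on one fluidics station and the mutant arrays on another, so station and genotype cannot be told apart there. At 30 min mutant replicate 3 ran on the controls' station, and its median member lay 0.25 above the control mean with 37 of 43 higher, against 0.39 and 0.27 with 39 and 37 higher on the other 2 mutant arrays. The 3' minus 5' control signals at 30 min were 0.13, 0.16 and 0.14 on control and 0.29, 0.26 and 0.20 on mutant arrays. They did not overlap there, whereas they overlapped after PBS, and their part in the genotype differences was not tested. The summed linear signal of 8 endothelial markers was also higher in mutants without overlap. It was 3885 to 4063 in control and 4969 to 5034 in mutant hearts after PBS, and 4228 to 4728 and 4997 to 5864 at 30 min. Flt1 was not higher after PBS, at means of 9.24 in mutant and 9.25 in control hearts. Emcn was lower in mutants at 30 min, at 9.64 against 9.72. The 8 fibroblast markers summed to 13700 to 16180 in control and 16580 to 18750 in mutant hearts after PBS and overlapped at 30 min. After PBS Dcn and Pdgfra were lower in mutants, at means of 12.44 and 8.20 against 12.55 and 8.23. None of the endothelial and fibroblast markers lay at the floor, and 0 of 16 passed the genotype test after PBS. The sums of 7 lymphocyte markers were also higher in mutants without overlap after PBS, at 175 to 189 and 202 to 307. Of these 7, 5 lay below the median of all values in control PBS hearts, and 0 passed. Ms4a1 and Cd79b went from means of 4.22 and 4.72 in control to 5.14 and 5.44 in mutant hearts, while Cd3e read 5.64 and 5.62.

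At 30 min 3 further marker sums were higher in mutants without overlap: 9 monocyte and macrophage markers at 4505 to 5074 in control and 5130 to 5610 in mutant hearts, 7 neutrophil markers at 178 to 279 and 310 to 553, and 8 smooth muscle and pericyte markers at 8583 to 10200 and 10430 to 11530. Of the neutrophil markers 5 lay below the median of all values in control hearts at 30 min and 4 in mutant hearts. The sum of 3 adipocyte markers was lower in mutants then, at 309 to 411 in control and 206 to 228 in mutant hearts. The part of these markers in the genotype differences was not tested.

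**Figure D5:**
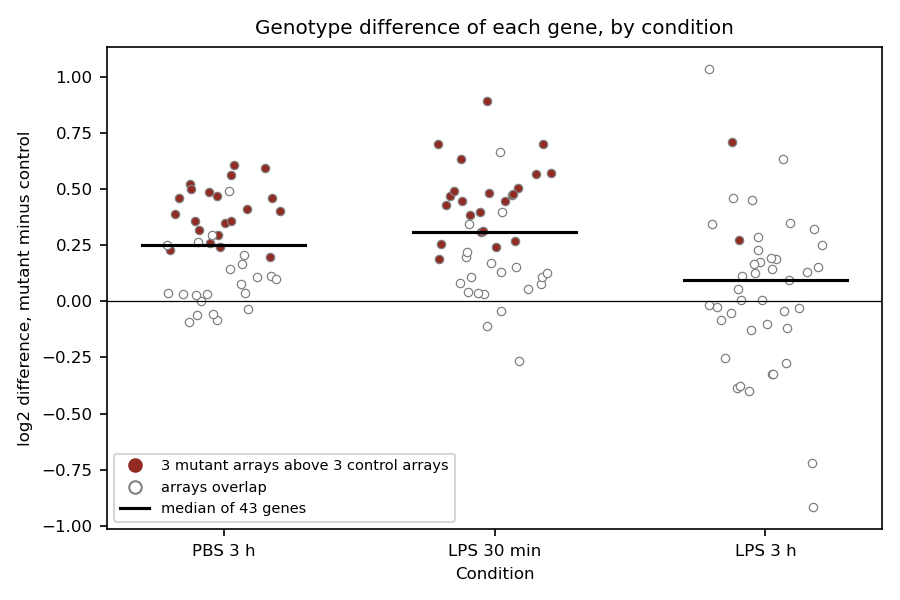
Each point is 1 of the 43 genes, at its log2 difference of mutant minus control hearts in 1 condition, red where all 3 mutant arrays exceed all 3 control arrays, with the median as a black line. The medians are 0.25 after PBS, 0.31 at 30 min and 0.09 at 3 h after LPS, where the points spread most.

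At 3 h after LPS the list as a whole stood near the rest of the genes, and 2 members were higher in mutants. The median difference was 0.09, against 0.08 over all genes, with 25 members above 0 and 18 below. By the probe sets used, 2 members passed upwards in limma and 0 downwards, against 9.75% and 13.2% of all genes. The share of the list (4.65%) was thus below the background. Other probe sets of the members are given further below. All mutant arrays lay above all control arrays in 2 members and below in 0, against 10.1% and 10.2% of all genes.

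The 2 members past the threshold were Bst2 and Ifitm3. The 2 without overlap were Bst2 and the dim Oas3, which differed by 0.27 and did not pass (limma adjusted p = 0.0632). Bst2 read 8.73, 8.27 and 8.20 on control and 9.11, 8.81 and 9.41 on mutant LPS 3 h arrays, without overlap, a difference of 0.71 (SE 0.17, limma adjusted p = 0.0153). Ifitm3 read 12.22, 11.996 and 11.62 on control and 12.53, 12.08 and 12.59 on mutant arrays, with mutant replicate 2 inside the control range, a difference of 0.45 (adjusted p = 0.0367). From 7.66, 7.83 and 7.81 and 8.34, 8.22 and 8.32 after PBS, Bst2 changed with LPS by 0.63 in controls and 0.82 in mutants. Ifitm3 read 11.35, 11.33 and 11.28 and 11.54, 11.62 and 11.58 after PBS in controls and mutants and changed by 0.63 and 0.82. Without the second-day arrays the differences at 3 h were 0.41 and 0.13 and neither passed (adjusted p = 0.329 and 0.739), nor did any other member, against 2.69% of all genes. Leaving out control LPS 3 h replicate 1 gave 6 higher members, against 2.71% of all genes, and leaving out replicate 3 gave 4 lower members, against 7.77%. Leaving out mutant LPS 3 h replicate 2 gave 7 higher and 4 lower, against 19.5% and 20% of all genes, replicate 1 gave 1 higher, against 11.1%, and replicate 3 gave 0. The median difference was 0.38 without control LPS 3 h replicate 1, -0.22 without control LPS 3 h replicate 3 and -0.07 without mutant LPS 3 h replicate 3. With arrays centred on their medians, 1 member was higher (Bst2) and 2 lower (Stat2 and Daxx), against 4.88% and 16.9% of all genes.

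The 43 members had 75 probe sets, 21 members having several. Of 32 probe sets not used above, 5 had the opposite sign to the one used for the LPS 3 h change in controls and 8 in mutants, and 3 passed in controls and 5 in mutants. Rsad2 has 3: on mutant LPS 3 h arrays the one used read 11.14, 11.03 and 11.68, and the others 8.63, 8.81 and 9.26 and 5.20, 8.32 and 5.74, against 8.01, 7.86 and 8.63 and 6.85, 7.27 and 7.80 after PBS. The last was lowest on the second-day replicates 1 and 3, and its mutant change was -0.88, against 1.54 in controls, without passing in either. Eif2ak2 passed in mutants only by a probe set not used, at 1.72 (limma adjusted p = 7.09e-05), and Trim21 in controls, at 0.67 (adjusted p = 0.0122). Between genotypes at 3 h after LPS, unused probe sets passed upwards for Eif2ak2, Parp14, Xaf1 and Rtp4. Mutants were higher by 1.36, 1.07, 0.80 and 0.57, and for Samhd1 by 0.94 and 0.58. Downwards they passed for Rsad2, Dtx3l and Trim21, at -2.18, -1.56 and -1.04. Of all 45037 probe sets 3588 passed upwards and 4721 downwards there. That comparison includes the second-day arrays.

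Genes that act upstream of the list were read beside it at 3 h after LPS. Over all genes 0.638% rose and 0.137% fell in controls, and 9.9% rose and 16.1% fell in mutants. Of 9 measured interferon genes, 6 of them under the median of all values over the arrays, 0 passed in controls, and Ifnb1, the first interferon made after TLR4 stimulation, changed by 0.07 in controls and 0.49 in mutants (limma adjusted p = 0.957 and 0.111). In mutants the interferon alpha genes Ifna9 and Ifna5 rose by 0.61 and 0.44, and Ifnz fell, at -0.51. Without the second-day arrays Ifna5 alone of these passed, at 0.52. Of 10 genes of interferon induction 0 passed in controls, where the LPS co-receptor gene Cd14 changed by 1.13 (adjusted p = 0.0914), and in mutants Cd14 rose by 0.95 (adjusted p = 0.0265), and by 1.54 without the second-day arrays (adjusted p = 0.0106). Mavs, the adaptor gene of the RNA sensors, fell in mutants, at -0.35 (adjusted p = 0.0294), and did not pass without the second-day arrays, where Tlr4, the receptor gene for LPS, fell instead, at -0.69 (adjusted p = 0.0307).

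Of 8 genes for inhibitors of the pathway 0 passed in controls, and in mutants Socs3, a feedback inhibitor of JAK kinases, rose by 2.76 (limma adjusted p = 0.00149), and by 2.32 without the second-day arrays (adjusted p = 0.0218). Pias1, for a PIAS inhibitor of STAT proteins, fell at -0.66 (adjusted p = 0.048), and without the second-day arrays Pias3 fell in its place, at -0.70 (adjusted p = 0.0209). Of 6 receptor genes 0 passed in controls and 3 fell in mutants, where 9.9% of all genes rose and 16.1% fell. They were Ifnar1, Il10rb and Ifngr2, at -0.66, -0.42 and -1.78. Of 4 genes for receptor kinases and STATs 0 passed in controls, and in mutants Jak1 fell at -1.06 while Tyk2 and Jak2 rose by 0.38 and 0.45. Without the second-day arrays 0 of these 6 receptor and 0 of these 4 kinase and STAT genes passed in mutants, and Ifngr2 and Jak1 changed by 0.15 and 0.07.

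In controls more genes of these lists passed without the second-day arrays, which enter that comparison through the shared spread. The interferon gamma receptor gene Ifngr1 then rose by 0.62 (limma adjusted p = 0.00875), and Jak1 and Stat3 by 0.32 and 0.50 (adjusted p = 0.0306 and 0.0338). Cd14 and Tlr3, for a receptor of double-stranded RNA, rose by 1.13 and 0.59 (adjusted p = 0.0206 and 0.0456), and Cish, for a SOCS family inhibitor, fell at -0.48 (adjusted p = 0.0276).

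Markers of other cells were read beside the list at 3 h, where 0.638% of all genes rose in controls and 9.9% in mutants. The shares that fell were 0.137% and 16.1%. Of 7 neutrophil markers S100a8 and S100a9 were the brightest, going from means of 6.12 and 6.07 to 7.96 and 8.33 in controls. There Ngp, Camp and Cxcr2 went from 4.47, 4.63 and 3.86 to 5.15, 5.11 and 4.04. Mpo and Elane went down, from 4.29 and 4.18 to 4.05 and 4.11. The summed linear signal of the 7 was 167 to 396 in control PBS, 505 to 944 in control LPS 3 h, 253 to 579 in mutant PBS and 807 to 4948 in mutant LPS 3 h hearts, and 0 of 7 rose in controls and 2 in mutants. In the fit that leaves out the second-day arrays 1 rose in controls (S100a9, by 2.26, limma adjusted p = 0.0236) and 0 in mutants. The 9 monocyte and macrophage markers summed to 4313 to 5097, 4932 to 6162, 4664 to 5507 and 4349 to 5968 in the same order, and 1 rose in each genotype, or 2 in controls and 3 in mutants without the second-day arrays. The 4 plasmacytoid dendritic cell markers summed to 104 to 111, 104 to 126, 104 to 122 and 124 to 210, and 0 rose in controls and 2 in mutants, or 1 in mutants without the second-day arrays. Endothelial markers fell in mutants in 6 of 8 after LPS, with sums of 2500 to 4361, and in 0 of 8 without the second-day arrays.

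Some markers of lung and fat rose in mutants 3 h after LPS, where 9.9% of all genes rose. Scgb1a1, a secretory gene of airway club cells, read 3.66, 9.90 and 8.798 on mutant LPS 3 h replicates 1, 2 and 3 and 3.66 to 3.94 on the PBS and control LPS 3 h arrays, so replicates 2 and 3 stood far above the rest. It rose in mutants by 3.70 (limma adjusted p = 0.0165), and by 6.14 without the second-day arrays, where the group is replicate 2 alone. The other 4 of 5 lung markers did not pass. Adipoq, the adipocyte hormone gene, read 5.38, 6.67 and 6.28 on mutant PBS arrays and 7.997, 9.92 and 8.26 on mutant LPS 3 h arrays. These did not overlap, and it rose by 2.61 (adjusted p = 0.00551). Adipoq was also high elsewhere, at 8.23, 7.94 and 8.05 on control and 7.42, 7.14 and 7.40 on mutant arrays at 30 min. On control LPS 3 h arrays it read 6.84, 5.27 and 7.70. Retn rose by 1.51 (adjusted p = 0.00232), so 2 of 3 adipocyte markers passed in mutants and 0 in controls, and without the second-day arrays both passed at 3.81 and 1.71. The part of these cells in the changes of the list was not tested.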

How the data were processed

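The authors deposited log2 values for 18 arrays, made with RMA per the submitters' processing notes, whose version and settings these notes do not state. RMA summarises the probes of a probe set and compresses dim signals, so differences of dim members are understated. Other text fields of the deposited experiment files, which hold no measurement, gave hybridization day, array lot and fluidics station. Array medians ran from 4.71 to 4.97, and the number of arrays limits the precision.

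Of 45101 probe sets, 64 controls were left out and 45037 were tested. Platform annotation gave 1 symbol for 34945, several for 932, which named no gene, and none for 9160. Each gene was represented by its probe set with the highest mean over the 18 arrays. Group means were compared in limma 3.58.1 and R 4.3.3 over 6 groups and 18 arrays (12 residual and 3.83 prior degrees of freedom), a fit tested on simulated data, with Benjamini-Hochberg adjustment within a contrast over all probe sets and a threshold of 0.05. No fit dropped or imputed a sample unless stated. Summed marker levels are sums of linear signals.

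The members, role groups and other lists were chosen with earlier results of these data known. Array values were given, per role group, for up to 3 members with the smallest p for LPS 3 h against PBS in controls among those past the threshold, or for 1 where none passed, and for members past a genotype threshold. Of other lists, values were given for up to 4 members past the threshold, or up to 2 where none passed. Members given array by array beyond this rule (Irf9, Stat2, Oasl1, Trim25, and LPS arrays of Cmpk2 and Mx1) and Ifnb1 and list genes given without the second-day arrays were chosen after their values were seen.

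Same-numbered arrays of different groups were checked for pairing. Their deviations from group means correlated at -0.32 to 0.36 over 45 pairs, 10 of them over 0.1. Arrays of different numbers correlated at -0.38 to 0.42 over 90 pairs, 8 of them over 0.1. These values do not settle whether the numbers paired the samples. The main fit took the arrays as unpaired, and a replicate block was among the alternatives. The closest pair of arrays differed with an SD of 0.16, and none were copies. Alternatives were other scalings, a dim filter, the mean of probe sets, subsets and a block by day, array weights, a replicate block, only the arrays compared, and leaving out each array. Promoters were matched by symbol for 35 of 45 members.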

Additional observations from a re-analysis of the deposited data

Results flagged for a closer look

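Oas2, Rsad2 and Cmpk2 were marked because at 30 min after LPS every control array lay below the control PBS mean and every mutant array above the mutant PBS mean. The control changes ran from -0.06 to -0.04 for Oas2, from -0.45 to -0.02 for Rsad2 and from -0.47 to -0.06 for Cmpk2. The mutant changes ran from 0.16 to 0.61, from 0.0049 to 0.48 and from 0.12 to 0.51. The difference, mutant minus control, was 0.39 for Oas2, 0.43 for Rsad2 and 0.46 for Cmpk2, and it was not tested.

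Ube2l6, Oas3 and Trim21 were marked because the genotypes stood in opposite order at 3 h after LPS and after PBS. Ube2l6 was higher in mutants after PBS by 0.27 and lower at 3 h after LPS at -0.38, a difference of -0.64. The same gene rose above its PBS mean on all 3 control LPS arrays and lay below it on all 3 mutant ones, which is the same difference of -0.64. Trim21 went from 0.20 to -0.27, a difference of -0.48, and Oas3 from -0.06 to 0.27, a difference of 0.33. The limma test of these differences gave adjusted p = 0.158 for Ube2l6, 0.362 for Trim21 and 0.178 for Oas3, so none passed. The mutant LPS 3 h values here include the second-day arrays. With 3 arrays a group no group was examined for a single array far from the rest.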

How the results depend on the processing

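In controls 3 h after LPS, 17 members passed with all arrays, 4 with first-day arrays only, 0 with only the arrays compared, and 0 to 28 when single arrays were left out. In mutants 22 passed, against 9.9% of all genes, and 1 with only the arrays compared, against 0.203%. Leaving out single arrays gave 12 to 25, against 2.89% and 17.8% of all genes, with a median from 0.47 to 0.82. With first-day arrays only, without the second-day arrays or with hybridization day as a block, the mutant LPS 3 h level rests on replicate 2 alone. The median was 0.52 in these settings. At 30 min, 0 became 3 in controls with array weights and 3 with only the arrays compared, and 3 in mutants with weights. The control median at 30 min was 0.0694 with the mean of the gene's probe sets and 0.0855 to 0.1706 without single arrays. Between genotypes, 0 became 5 after PBS with only the arrays compared, and at 30 min 1 without the second-day arrays, 4 with weights and 7 with only the arrays compared. At 3 h the 2 became 8 with the mean of probe sets, 6 higher against 9.78% of all genes and 2 lower against 13.2%. Array weights gave 5 higher, against 5.6%, with a median of 0.51. Only the arrays compared gave 0, and leaving out single arrays gave 0 to 11. With first-day arrays only, without second-day arrays or with the day block the median was -0.06. For the difference of LPS effects, weights gave 1 member upwards, against 4.59% of all genes, and a median of 0.39. Leaving out single arrays gave 0 to 4 members and medians of -0.51 to 0.19. The difference of LPS effects turned to -0.11 for Bst2 and -0.13 for Ifitm3 in the 3 settings that remove or block the second day. The causes were not tested. The replicate block gave 13 members in controls and 23 in mutants after LPS at 3 h, against 0.616% and 9.82% of all genes. It moved no other count. First-day arrays hold no 30 min group, so that setting gave no value there. Over the array-by-array members, 523 results were unchanged in direction and side of the threshold, 200 fell short of it, 17 newly passed and 6 turned. RMA's compression of dim signals limits dim members such as Oas3 and Mx1.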
